A study of Homo sapiens with 18 samples.

Results

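The chemokine genes described here across 6 groups of human fibroblasts number 10: CXCL9, CXCL10, CXCL11, CXCL12, CCL2, CCL5, CCL7, CCL8, CCL20 and CX3CL1. All 10 were found by gene symbol in a table of 57500 genes. Of these, 6 had enough reads for a test (CXCL10, CXCL11, CCL5, CCL2, CCL20 and CXCL12), and 4 did not (CXCL9, CCL8, CCL7 and CX3CL1) and are described by their read counts alone. CCL5 and CCL20 passed the filter on low counts through the groups in which they were high.

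Poly(A) RNA was sequenced from 18 libraries of IMR90, a line of human lung fibroblasts with a limited lifespan, in 6 groups of 3. Prol cells were proliferating and untreated, and Sen (IR) cells had been made senescent by ionizing radiation. The other 4 groups were irradiated cells that also received CCCP, a compound that collapses the mitochondrial membrane potential. In cells that overexpress Parkin, which the study's methods describe but the sample labels do not assign to groups, CCCP leads to the clearance of mitochondria. Sen (IR) + CCCP cells received nothing further, and the remaining groups then received acetate, transfected mitochondrial DNA (mtDNA), or both. In the study's methods, acetate was renewed through the culture and mtDNA was transfected late in it. Agent and length of exposure therefore cannot be told apart between acetate and mtDNA. No group received CCCP without irradiation, and none is labelled as given the transfection reagent without mtDNA. By the labels, reagent, transfection and mtDNA therefore cannot be told apart. The labels do not tie the 3 libraries of a group to separate cultures, while the methods speak of independent experiments. If the libraries share a culture, the p-values measure only technical spread.

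Chemokines are small secreted proteins that attract leukocytes through G-protein-coupled receptors. CXCL9, CXCL10 and CXCL11 share the receptor CXCR3 of activated T cells and NK cells, and are classic products of interferon signalling, whose transcription factors bind the interferon-stimulated response element (ISRE) and the gamma-activated site (GAS). CCL2, CCL7 and CCL20 belong to the genes that NF-κB turns on after IL-1 or TNF, and in senescent fibroblasts they form part of the secretory phenotype known as the SASP. CXCL12 is a homeostatic chemokine made by stromal cells without an inflammatory stimulus. By this textbook division the members were placed in an interferon-driven class (CXCL9, CXCL10, CXCL11, CCL5 and CCL8), an NF-κB-driven class (CCL2, CCL7, CCL20 and CX3CL1) and CXCL12 alone. The division is not strict, since CXCL10, CCL5 and CX3CL1 can answer to both pathways.

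The regions before the start sites of 3 members that the results turn on are shown because they differ in which of these elements they hold. Each run is the 250 bases before the RefSeq transcription start on the gene's own strand in GRCh38.p14, and capitals mark matches on either strand to the ISRE core GAAANNGAA, the GAS element TTCNNNGAA or the κB consensus. The CXCL10 run lies at chr4:76023498-76023747 (minus strand), the CXCL11 run at chr4:76036071-76036320 (minus strand) and the CCL20 run at chr2:227813592-227813841 (plus strand).
CXCL10: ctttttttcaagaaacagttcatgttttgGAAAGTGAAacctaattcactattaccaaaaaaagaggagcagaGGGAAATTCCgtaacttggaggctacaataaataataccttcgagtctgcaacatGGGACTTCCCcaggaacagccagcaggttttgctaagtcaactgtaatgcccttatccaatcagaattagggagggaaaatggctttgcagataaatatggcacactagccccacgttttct
CXCL11: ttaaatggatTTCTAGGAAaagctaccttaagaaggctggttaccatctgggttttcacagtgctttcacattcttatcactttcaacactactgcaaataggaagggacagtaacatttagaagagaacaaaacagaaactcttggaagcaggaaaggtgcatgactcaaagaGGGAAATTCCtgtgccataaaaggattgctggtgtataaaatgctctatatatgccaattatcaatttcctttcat
CCL20: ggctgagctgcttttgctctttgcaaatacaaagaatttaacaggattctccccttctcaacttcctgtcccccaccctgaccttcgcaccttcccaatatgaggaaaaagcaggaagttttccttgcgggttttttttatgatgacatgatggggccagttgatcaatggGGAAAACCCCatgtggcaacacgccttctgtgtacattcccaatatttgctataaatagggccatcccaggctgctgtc

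CXCL10 held 1 ISRE core match, GAAAGTGAA, 221 bases before the start, and 2 κB matches, GGGAAATTCC and GGGACTTCCC, 177 and 122 bases before it. CXCL11 held the same κB letters, GGGAAATTCC, 76 bases before the start. It had 1 GAS match, TTCTAGGAA, in the region shown, and a further 1, TTCCAAGAA, that begins 18 bases past the start and is not in the run. CCL20 held a single κB match, GGAAAACCCC, 79 bases before the start. Of the 10 members, 7 had an entry in the RefSeq promoter table (CCL2, CCL5 and CX3CL1 had none), and in the 300 bases of each entry CXCL9 held 1 ISRE core match, CCL7 and CCL8 held 1 GAS match each, and CXCL12 held no match. Over all 35116 promoters of that length, the ISRE core was found in 8.11%, GAS in 7.66% and the κB consensus in 5.91%. A match describes the letters in this window and is not evidence that a factor binds there.

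The 18 libraries held between 24624886 and 46224280 reads counted on genes, with a median of 29620505.5. The 13 protein-coding genes of the mitochondrial genome took between 1.75% and 2.89% of the reads in libraries without CCCP, and between 0.0461% and 0.237% in libraries with it. Fibroblast markers (collagens, DCN, LUM, PDGFRB, THY1 and VIM) were read in every library. Their sum lay between 37070 and 40790 CPM (read counts scaled to library size) in Prol, between 20340 and 25270 CPM in Sen (IR) and between 4709 and 6880 CPM in the groups with CCCP. The 8 leukocyte markers summed to between 0.892 and 3.01 CPM and the 4 endothelial markers to between 0.468 and 2.68 CPM, and the epithelial sum of between 26.1 and 106 CPM came mostly from KRT18 and KRT8. Sen (IR) replicate 3 and replicate 2 of the combination of acetate and mtDNA stood apart from the other libraries of their groups: the chi-square of read counts per gene against those libraries was between 22.2 and 28.6, while the other pairs lay between 2.73 and 7.26. That combination library also had the highest mitochondrial share after CCCP, 0.237%, against 0.0624% and 0.064% in the other two. Where leaving out either library changes a call or moves a member's value by over 1.5 times, the value without it is given.

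CXCL10 was the most abundant member in every irradiated group except Sen (IR) + CCCP, by TPM, a transcript level scaled to gene length and library size. In Prol cells CCL2 led with a mean of 70.9 TPM, ahead of CXCL10 with 54.6 TPM and CXCL11 with 4.55 TPM, and their library ranges did not overlap. In Sen (IR) cells the order by level was CXCL10 (1125 TPM), CCL2 (481 TPM), CCL20 (50.1 TPM) and CXCL11 (21.6 TPM), again without overlap. CXCL12 (1.80 TPM) and CCL5 (1.72 TPM) followed with overlapping ranges. In Sen (IR) + CCCP cells CCL2 led again at 11.7 TPM, ahead of CXCL10 at 6.30 TPM and CXCL12 at 2.75 TPM. With acetate, CXCL10 led at 48.5 TPM, and CCL20 (6.23 TPM) and CCL2 (5.41 TPM) overlapped. With mtDNA, CXCL10 (592 TPM) was followed by CXCL11 (105 TPM), and CCL2 (18.7 TPM) overlapped CCL5 (10.3 TPM). With both, CXCL10 (459 TPM on average, with 218, 933 and 226 TPM in the 3 libraries) and CXCL11 (41.3 TPM) led, and CCL20, CCL2 and CCL5 overlapped in turn between 9.0 and 4.54 TPM.

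**Figure D1:**
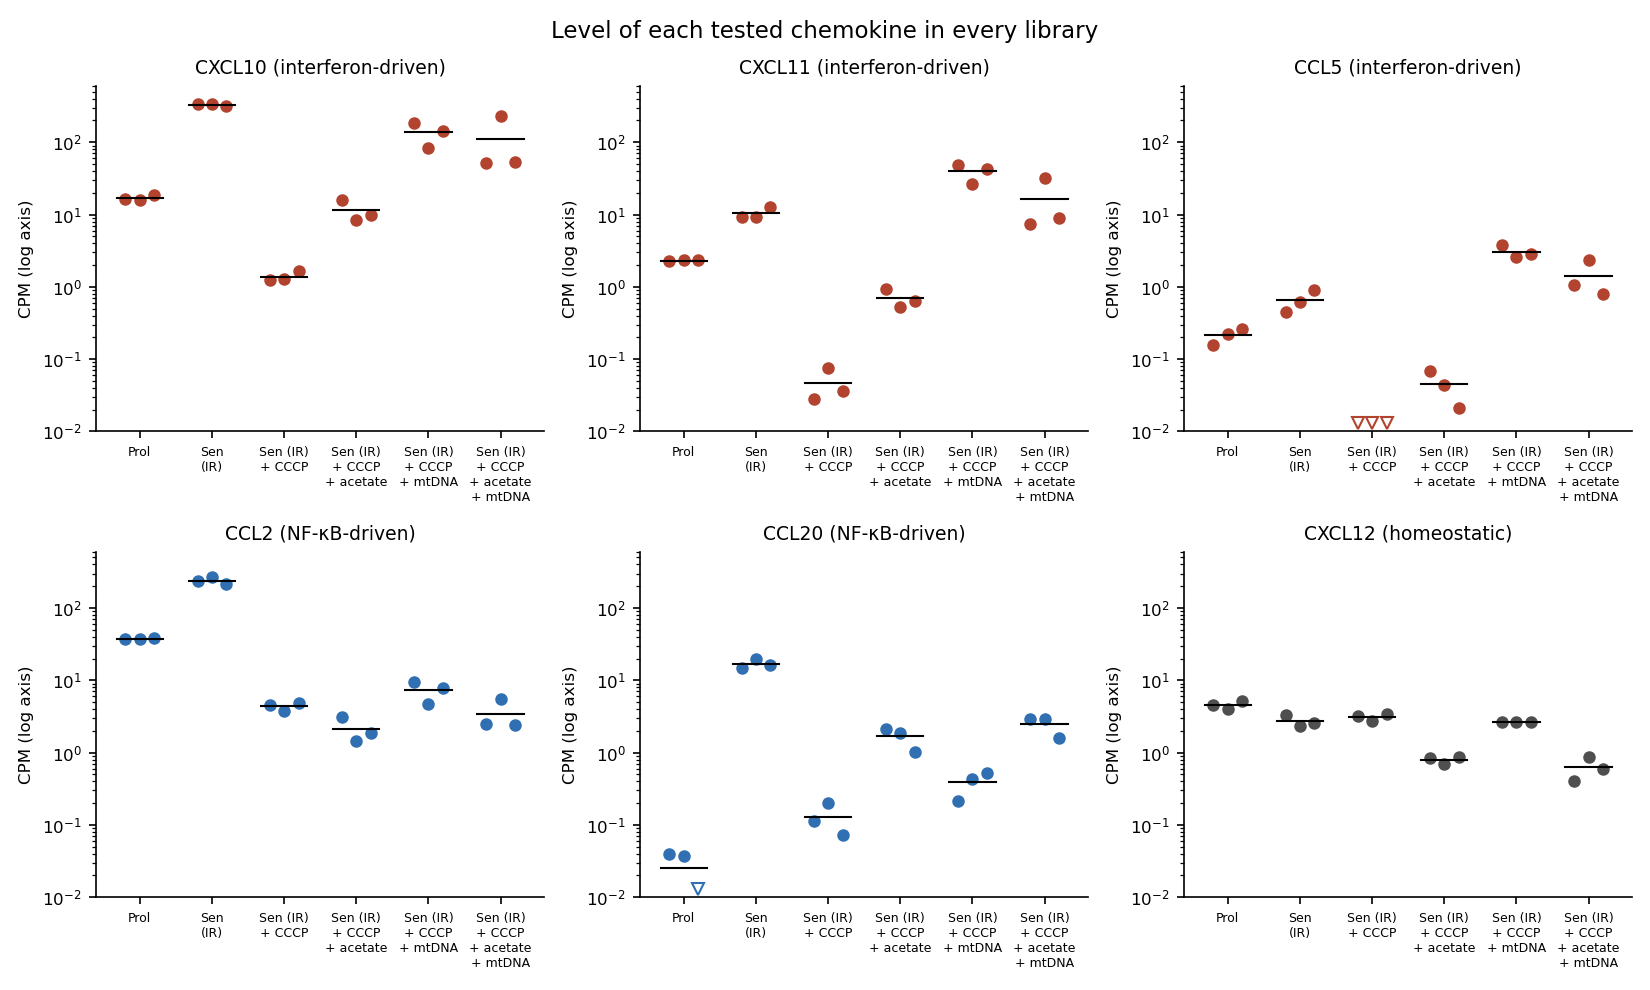
CPM (log axis) of the 6 tested chemokines in each of the 18 libraries, by group, with points for replicates 1 to 3 from left to right, a bar for the group mean and open triangles for libraries with 0 reads. CXCL10, CXCL11 and CCL5 are high in the groups with mtDNA, CCL2 stays at 10 CPM or lower in all 4 groups with CCCP, and CXCL12 is lowest in the groups with acetate.

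All 5 inducible chemokines that could be tested were higher in irradiated senescent cells than in proliferating ones, and CXCL12 was lower. The question was which chemokines senescent fibroblasts make that dividing ones do not. Over all 16994 genes tested, 26.7% were called higher and 29.9% lower in this comparison, where a call means an adjusted p under 0.05 (edgeR quasi-likelihood test on counts, Benjamini-Hochberg adjustment over all genes tested, as throughout). CXCL10, CCL2 and CCL20 are also among the study's PCR probes and may have been chosen on these samples, so their direction here is not independent evidence.

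CXCL10, the CXCR3 ligand, had 16.6, 16.0 and 18.6 CPM in the 3 Prol libraries and 341, 343 and 313 CPM in the 3 Sen (IR) libraries. The groups did not overlap, and the gene rose by 4.28 ± 0.43 on the log2 scale (SE, n = 3 against 3, a 19.4-fold difference, adjusted p = 1.93e-08). CXCL11, its neighbour on chromosome 4, had 2.27, 2.33 and 2.31 CPM in Prol and 9.34, 9.13 and 12.6 CPM in Sen (IR), a rise of 2.16 ± 0.44 (adjusted p = 2.68e-04). CCL5, a T cell and monocyte attractant also known as RANTES, was low in both groups, with 0.157, 0.222 and 0.260 CPM in Prol and 0.446, 0.614 and 0.895 CPM in Sen (IR). Its rise of 1.52 ± 0.49 (adjusted p = 0.0122) was no longer called without Sen (IR) replicate 3, at 1.22 with an adjusted p of 0.0633.

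CCL2, the monocyte attractant that acts through CCR2, had 37.0, 36.8 and 38.4 CPM in Prol and 239, 266 and 214 CPM in Sen (IR). It rose by 2.68 ± 0.16 on the log2 scale (6.41-fold, adjusted p = 4.97e-12). CCL20, the ligand of CCR6, was close to absent from Prol cells, with 1, 1 and 0 reads, and had 630, 519 and 465 reads in Sen (IR), or 14.8, 19.9 and 16.0 CPM. The ratio of the summed reads was 752, with an exact 95% interval from 208 to 6217 that covers counting error only, and the fitted rise was 9.35 ± 0.43 (adjusted p = 7.11e-14). CXCL12, the ligand of CXCR4, went the other way, from 4.5, 4.0 and 5.14 CPM in Prol to 3.31, 2.34 and 2.58 CPM in Sen (IR). It fell by 0.71 on the log2 scale (SE 0.16), so that the groups did not overlap (adjusted p = 7.8e-04).

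All 5 inducible members were lower in irradiated cells given CCCP than in irradiated cells without it, and CXCL12 did not pass the test. This comparison asked what the loss of mitochondria does to the chemokines of senescent cells, and 34.0% of all genes were called higher in it and 31.3% lower. In bulk RNA, fewer cells that make a transcript and less transcript per cell cannot be told apart, here and in each comparison that follows. Fibroblast markers moved as well: 8 of 8 were called lower, with a median of -2.29 on the log2 scale. Proliferation markers moved the other way, 3 of 3 higher with a median of 1.00, their sum lying between 169 and 192 CPM with CCCP and between 88.8 and 89.9 CPM without. The part of these markers in the result was not tested.

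After CCCP, CXCL10 had 1.23, 1.29 and 1.63 CPM and fell by 7.93 on the log2 scale (SE 0.57, 243-fold lower, adjusted p = 5.56e-11). CXCL11 was left with 1, 3 and 1 reads, against 398, 238 and 365 reads in Sen (IR). Its summed reads were 211-fold lower (exact 95% interval 90.2 to 652), and it fell by 7.62 in the fit (SE 0.86, adjusted p = 7.02e-08). CCL5 had 0 reads in all 3 libraries with CCCP against 61 reads in the 3 Sen (IR) libraries together, which makes it at least 21.4-fold lower, taking a floor of 3 counts over the group (adjusted p = 3.75e-06).

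CCL2 had 4.49, 3.74 and 4.79 CPM after CCCP and fell by 5.80 on the log2 scale (SE 0.20, 55.7-fold lower, adjusted p = 4.2e-16). CCL20 had 4, 8 and 2 reads, or 0.112, 0.202 and 0.0726 CPM, and fell by 6.92 (SE 0.32, 121-fold lower, adjusted p = 4.32e-14). CXCL12 held 3.23, 2.75 and 3.38 CPM, within the range that overlaps Sen (IR). Its difference was 0.16 ± 0.17, with a 95% interval from -0.19 to 0.51 (adjusted p = 0.429). The log2 changes of CXCL10, CXCL11, CCL2 and CCL20 thus lay between -7.93 and -5.80, with both classes included, and CXCL12 stood apart from them. CCL5, with 0 reads after CCCP, has only a bound and cannot be placed in this range.

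Set against proliferating cells rather than senescent ones, the cells with CCCP had less of 5 of the 6 tested members, in a comparison in which 69.2% of all genes were called in either direction. CXCL10 was 12.6-fold lower than in Prol (log2 -3.65 ± 0.64, adjusted p = 2.82e-05), CXCL11 fell by 5.46 (SE 1.18, adjusted p = 3.05e-04) and CCL2 fell by 3.12 (SE 0.20, adjusted p = 6.92e-12). CCL5 was at least 7.54-fold lower (adjusted p = 7.46e-04), and CXCL12 was 1.47-fold lower (log2 -0.56 ± 0.16, adjusted p = 0.00406). CCL20 alone was higher, with 14 reads against 2, and its difference of 2.43 ± 1.16 did not pass (adjusted p = 0.0667). DESeq2 called it higher (2.61, adjusted p = 0.0286).

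The tested interferon-driven members all had more reads with acetate, while the tested NF-κB-driven pair split. The comparison asked which chemokines return when cleared cells are supplied with a source of acetyl groups, and it called 28.8% of all genes higher and 28.3% lower. CXCL10, CXCL11 and CCL20 rose, CCL2 and CXCL12 fell, and CCL5 did not pass the test.

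CXCL10 had 16.0, 8.48 and 9.76 CPM with acetate against 1.23 to 1.63 CPM without, a rise of 3.03 ± 0.66 (8.14-fold, adjusted p = 4.66e-04). The libraries did not overlap, yet the mean with acetate was 3.44% of the Sen (IR) mean. CXCL11 rose from 5 reads in the group to 81, or 13.7-fold by summed reads (exact 95% interval 5.63 to 43.3). Its call was marginal (3.68 ± 1.53, adjusted p = 0.0445), and it was lost without any single library of either group, where the adjusted p lay between 0.0533 and 0.108. Leaving out Sen (IR) replicate 3 lost it as well (3.68, adjusted p = 0.0543), as did leaving out Prol replicate 2 or 3 (adjusted p = 0.0532 and 0.0505). CCL5 went from 0 reads to 2, 2 and 1, at least 1.41-fold higher (adjusted p = 0.0966). Without replicate 2 of the combination group, which enters the shared estimate of spread, CCL5 was called (adjusted p = 0.0386).

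The NF-κB-driven pair moved in opposite directions with acetate. CCL20 had 62, 84 and 49 reads, or 2.14, 1.85 and 1.03 CPM, all above the 0.0726 to 0.202 CPM of cells without acetate. It rose by 3.55 ± 0.43 (11.7-fold, adjusted p = 3.73e-07), to 9.90% of the Sen (IR) mean. CCL2 had 3.11, 1.45 and 1.89 CPM, all below the 3.74 to 4.79 CPM of cells without acetate, and fell by 1.07 (SE 0.28, 2.11-fold lower, adjusted p = 0.00253). CXCL12 fell as well, to 0.830, 0.705 and 0.861 CPM, by 1.96 on the log2 scale (SE 0.20, 3.89-fold lower, adjusted p = 1.73e-08). Proliferation markers fell beside these members, 3 of 3 with a median of -2.56 on the log2 scale. Of 8 leukocyte markers 2 could be tested (CD14 and CD68) and both rose, the sum of all 8 lying between 2.35 and 2.51 CPM with acetate and between 0.892 and 1.06 CPM without, with CD3E and ITGAM at 0 with acetate. The part of these markers in the result was not tested.

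Cells transfected with mtDNA had more of the tested interferon-driven members, and these differed by more than the tested NF-κB-driven ones. The comparison asked whether mitochondrial DNA alone restores chemokines, and it changed fewer genes than acetate, with 10.7% called higher and 7.4% lower. All 3 tested interferon-driven members rose, CCL2 rose by less, and neither CCL20 nor CXCL12 passed the test.

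CXCL10 had 183, 82.3 and 145 CPM with mtDNA, a rise of 6.65 ± 0.57 over Sen (IR) + CCCP (100.2-fold, adjusted p = 2.1e-08). CXCL11 had 1355, 728 and 1338 reads against 1, 3 and 1, or 49.0, 26.1 and 43.2 CPM. The summed reads were 815-fold higher (exact 95% interval 349 to 2513), and the fitted rise was 9.56 ± 0.72 (adjusted p = 3.5e-09). CCL5 had 104, 72 and 88 reads against 0, at least 105-fold higher (adjusted p = 2.17e-08). In all 3 genes the libraries with mtDNA lay wholly above those without.

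CCL2 had 9.43, 4.71 and 7.78 CPM with mtDNA against 3.74 to 4.79 CPM without, and the groups overlapped. Its rise of 0.77 ± 0.24 (1.70-fold, adjusted p = 0.0289) was lost without Sen (IR) + CCCP replicate 1 or 2 or Sen (IR) + CCCP + mtDNA replicate 1 or 3 (adjusted p between 0.0632 and 0.17) and under DESeq2 (0.76, adjusted p = 0.105). CCL20 had 6, 12 and 16 reads, or 0.217, 0.431 and 0.517 CPM, a difference of 1.51 ± 0.61 (adjusted p = 0.0969). DESeq2 called it higher (1.54, adjusted p = 0.0169), and the libraries did not overlap. CXCL12 had 2.67, 2.62 and 2.62 CPM, all below the libraries without mtDNA, and its difference of -0.24 ± 0.17 did not pass (adjusted p = 0.395). Of 8 fibroblast markers 3 were lower and 0 higher (median 0.03). Of 3 proliferation markers 1 was lower and 0 higher (median -0.22). The part of these markers in the result was not tested.

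**Figure D2:**
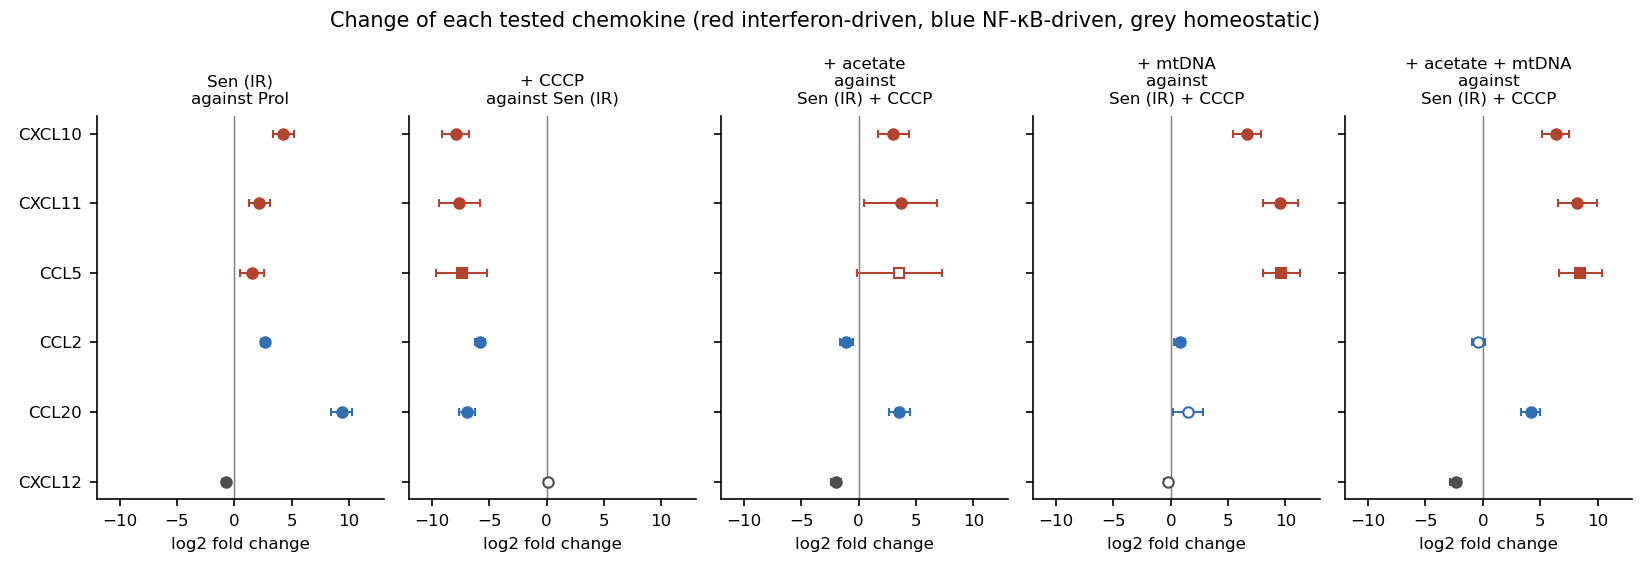
Log2 fold change of the 6 tested chemokines in 5 comparisons, with 95% intervals derived from the edgeR test. Symbols are filled for adjusted p under 0.05 and open otherwise. Squares mark CCL5 where 1 group had 0 reads, so that the fitted value depends on the prior count. The 2 NF-κB-driven genes lie on opposite sides of 0 with acetate, at -1.07 for CCL2 and 3.55 for CCL20, while CXCL10, CXCL11 and CCL5 lie at 6.65 or higher with mtDNA.

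The groups given the 2 additions differed for every member that could be tested, and they also differed in length of exposure. Between mtDNA and acetate, where 61.3% of all genes were called in either direction, CXCL10 was 12.3-fold higher with mtDNA (3.62 ± 0.43, adjusted p = 2.07e-07), CXCL11 58.8-fold (5.88 ± 0.48, adjusted p = 6.95e-10) and CCL5 74.5-fold by summed reads (exact 95% interval 31.5 to 231, adjusted p = 2.91e-09). CCL2 was 3.58-fold higher with mtDNA (1.84 ± 0.26, adjusted p = 3.3e-06) and CXCL12 was 3.30-fold higher (1.72 ± 0.20, adjusted p = 1.93e-07). CCL20 was the exception, 4.11-fold lower with mtDNA than with acetate (-2.04 ± 0.36, adjusted p = 4.83e-05).

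Acetate and mtDNA together gave the tested interferon-driven genes and CCL20 at once, while CCL2 did not pass the test. Against Sen (IR) + CCCP, 30.3% of all genes were called higher and 31.4% lower, and of the 6 members 4 were higher and 1 was lower. CXCL10 had 52.0, 229 and 53.8 CPM (6.34 ± 0.57, adjusted p = 3.27e-09), CXCL11 had 7.46, 32.4 and 8.96 CPM (8.24 ± 0.81, adjusted p = 1.18e-08) and CCL5 had 39, 58 and 23 reads, at least 46.0-fold higher than 0 reads (adjusted p = 8.2e-08). CCL20 had 2.92, 2.91 and 1.61 CPM, a rise of 4.16 ± 0.41 (17.9-fold, adjusted p = 1.42e-08). Without replicate 2, CXCL10 was higher by 5.29 ± 0.30 (adjusted p = 1.23e-13) and CXCL11 by 7.30 ± 0.46 (adjusted p = 8.96e-13).

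CCL2 had 2.45, 5.45 and 2.38 CPM, and its difference of -0.39 ± 0.27 did not pass (adjusted p = 0.23). Replicate 2 decided that call: without it CCL2 was called lower, at -0.81 (adjusted p = 0.00843). CXCL12 had 0.409, 0.861 and 0.595 CPM and fell by 2.37 on the log2 scale (SE 0.22, 5.18-fold lower, adjusted p = 4.51e-09). Both leukocyte markers that could be tested were higher (median 1.16), 3 of 3 proliferation markers were lower (median -2.67), and of 8 fibroblast markers 4 were higher and 4 lower (median 0.00069). The part of these markers in the result was not tested.

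In replicate 2 of the combination, 5 of the 6 tested members were highest of the 3 libraries, all but CCL20. The same library was the highest for 21 of 21 tested genes of a list of interferon response genes and for 15 of 22 of an NF-κB list, beside 39.0% of all genes tested. IFNB1, which encodes interferon beta and is among these 21 genes, had 4, 30 and 6 reads in the 3 libraries. Members also moved together inside other groups: in Sen (IR) + CCCP + mtDNA, replicate 1 was highest for 5 of 6 members and for 20 of 21 interferon genes, against 34.6% of all genes. In Sen (IR) + CCCP + acetate, replicate 1 was highest for 5 of 6 members and for 19 of 22 NF-κB genes, against 34.9% of all genes.

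When mtDNA was added to cells already given acetate, 6.57% of all genes were called higher and 6.0% lower. The calls among members were the 3 tested interferon-driven genes. CXCL10 was 9.95-fold higher with both than with acetate alone (3.31 ± 0.43, adjusted p = 1.78e-05), CXCL11 was 23.6-fold higher (4.56 ± 0.51, adjusted p = 2.72e-06) and CCL5 was 32.6-fold higher by summed reads (exact 95% interval 13.6 to 102, adjusted p = 7.25e-06). Without replicate 2 of the combination the folds were smaller, 4.79 for CXCL10 (2.26 ± 0.22, adjusted p = 5.15e-08) and 12.2 for CXCL11 (3.61 ± 0.28, adjusted p = 7.14e-10). CCL20 (0.61 ± 0.25, adjusted p = 0.117), CCL2 (0.69 ± 0.31, adjusted p = 0.151) and CXCL12 (-0.41 ± 0.26, adjusted p = 0.333) did not pass. CCL20 was called without replicate 3 of the combination (0.84, adjusted p = 0.0306).

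Cells given both were also set against cells given mtDNA alone, where 27.4% of all genes were called higher with both and 29.9% lower. CCL20 was 6.28-fold higher with both (2.65 ± 0.35, adjusted p = 1.05e-06). CXCL11 was 2.5-fold lower (-1.32 ± 0.33, adjusted p = 0.00155), CCL5 was 2.22-fold lower (-1.15 ± 0.31, adjusted p = 0.00333), CCL2 was 2.23-fold lower (-1.15 ± 0.26, adjusted p = 5.98e-04) and CXCL12 was 4.40-fold lower (-2.14 ± 0.23, adjusted p = 4.76e-08). The libraries of CXCL11 and of CCL2 overlapped between the groups, while those of CCL5 and CXCL12 did not. CXCL10 did not pass (-0.31 ± 0.36, 95% interval -1.06 to 0.45, adjusted p = 0.496), and here too replicate 2 decided the result. Without it CXCL10 was lower, at -1.36 (adjusted p = 2.28e-06), CXCL11 was 4.78-fold lower (-2.26 ± 0.18, adjusted p = 1.58e-10), and without replicate 1 or replicate 3 the difference of CXCL10 was 0.06 and 0.04.

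Whether the 2 additions combined as the product of their separate effects was tested by an interaction term, which is 0 where log2 changes add up. It was called for 0.659% of all genes and for 1 of the 6 members, CXCL10, at -3.33 ± 0.76 (95% interval -4.92 to -1.74, adjusted p = 0.0424). Against Sen (IR) + CCCP, CXCL10 was higher by 3.03 with acetate, by 6.65 with mtDNA and by 6.34 with both. The call was close to the threshold: it was lost with DESeq2's size factors (-3.30, adjusted p = 0.0525), with only the groups compared in the fit (-3.33, adjusted p = 0.102) and without any one of 16 of the 18 libraries, where the estimate lay between -3.52 and -2.99 and the adjusted p between 0.0506 and 0.137. The 2 libraries whose removal kept it were replicate 2 of the combination (-4.39 ± 0.39, adjusted p = 5.02e-08) and replicate 2 of Sen (IR) + CCCP + mtDNA. CXCL11 (-5.00 ± 1.47, adjusted p = 0.142) and CCL5 (-4.71 ± 1.83, adjusted p = 0.308) did not pass. The CCL5 value depends on the prior count, since Sen (IR) + CCCP had 0 reads. CXCL11 was called without replicate 2 of the combination (-5.95, adjusted p = 4.73e-06). CCL20 (-0.90 ± 0.66), CCL2 (-0.08 ± 0.39) and CXCL12 (-0.18 ± 0.31) had adjusted p-values between 0.653 and 0.966.

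How far each addition brought the members back was read against intact senescent cells. With acetate alone, where 65.9% of all genes were called in either direction, all 6 members were lower than in Sen (IR), from 3.49-fold for CXCL12 to 117-fold for CCL2. With mtDNA, where 67.5% of all genes were called, CXCL11 was 3.82-fold higher than in Sen (IR) (1.93 ± 0.34, adjusted p = 2.86e-05) and CCL5 was 4.79-fold higher (2.26 ± 0.34, adjusted p = 6.44e-06). CXCL10 stayed 2.43-fold lower (-1.28 ± 0.36, adjusted p = 0.0037), CCL2 32.8-fold lower (-5.03 ± 0.19, adjusted p = 1.27e-15) and CCL20 42.5-fold lower (-5.41 ± 0.28, adjusted p = 2.03e-13). CXCL12 did not differ beyond its error (-0.08 ± 0.17, 95% interval -0.44 to 0.28, adjusted p = 0.703).

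With both additions, where 66.9% of all genes were called against Sen (IR), CCL20 remained 6.76-fold lower (-2.76 ± 0.21, adjusted p = 1.01e-10), CXCL10 3.00-fold lower (-1.59 ± 0.37, adjusted p = 6.53e-04), CXCL12 4.65-fold lower (-2.22 ± 0.22, adjusted p = 1.1e-08) and CCL2 72.9-fold lower (-6.19 ± 0.21, adjusted p = 2.07e-16). Without replicate 2 of the combination CXCL10 was 6.15-fold lower (-2.62 ± 0.20, adjusted p = 2.78e-11). CCL5 was 2.16-fold higher (1.11 ± 0.36, adjusted p = 0.0112), a call lost without replicate 2 of the combination (0.60, adjusted p = 0.131) or without Sen (IR) replicate 1 (0.86, adjusted p = 0.073). CXCL11 did not pass (0.62 ± 0.35, adjusted p = 0.127) and changed sign without replicate 2 of the combination (-0.31). CCL2 thus kept between 0.897% and 3.05% of its Sen (IR) mean in the 3 groups with an addition, while CCL20 kept between 2.30% and 14.7% and CXCL10 between 3.43% and 41.2%.

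The ratio of CXCL10 to CCL2 within a library, taken per length from TPM, is a contrast of these genes and not of their whole classes. It was 0.759, 0.733 and 0.820 in Prol, 2.41, 2.18 and 2.46 in Sen (IR) and 0.462, 0.582 and 0.576 in Sen (IR) + CCCP. With acetate it was 8.69, 9.85 and 8.72, with mtDNA it was 32.8, 29.6 and 31.4, and with both it was 35.8, 71.0 and 38.2. No range overlapped another. Within the mtDNA group the ratio kept a narrow range, while CXCL10 itself lay between 357 and 790 TPM, and CXCL10 and CCL2 were both lowest in replicate 2. With acetate, alone or with mtDNA, CCL2 made up between 34.7% and 55.8% of the summed TPM of its class. The summed TPM of the interferon-driven class over that of the NF-κB-driven class was 37.1, 31.7 and 34.3 with mtDNA. With both it was 14.3, 43.4 and 21.2, so these ranges overlapped.

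**Figure D3:**
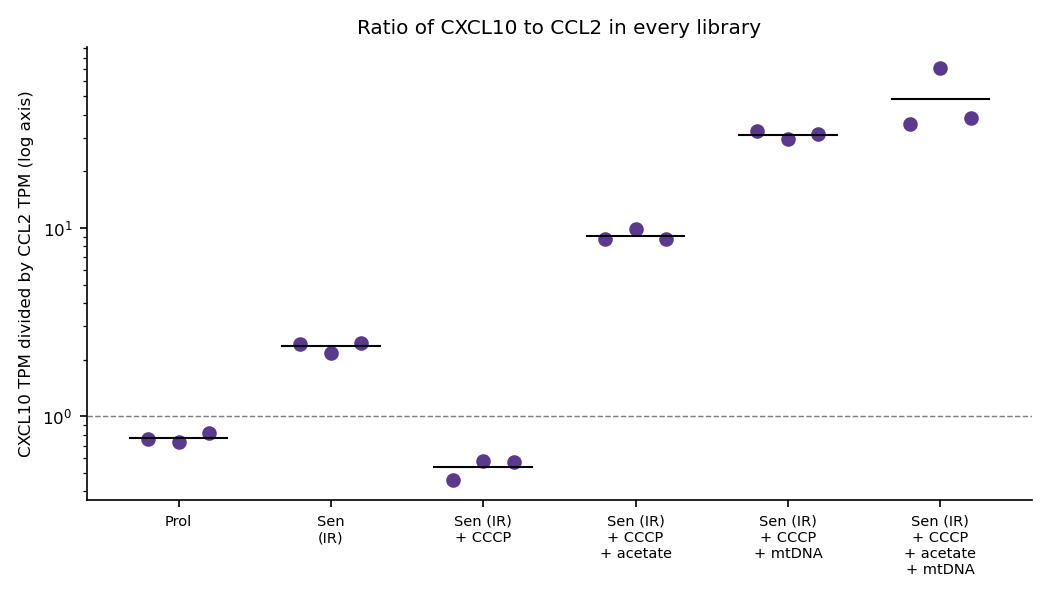
TPM of CXCL10 divided by TPM of CCL2 (log axis) in each library, by group, with a bar for the group mean and a dashed line at 1. The ratio is below 1 in Prol and in Sen (IR) + CCCP, between 8.69 and 9.85 with acetate, and 29.6 or higher in all 6 libraries with mtDNA.

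The 4 members below the filter had between 0 and 14 reads in any library, so a difference that was not seen in them may still exist at this depth. CXCL9, the third CXCR3 ligand, had 6, 4 and 11 reads with mtDNA and 10, 8 and 5 reads with both, against 1, 1 and 0 reads in Sen (IR) + CCCP and 5, 4 and 0 with acetate. Its summed reads were 12.5-fold higher with mtDNA (exact 95% interval 3.06 to 110) and 13.2-fold higher with both (3.27 to 116), and its 6 reads in Sen (IR) against 5 in Prol gave a ratio of 1.12 (0.284 to 4.63). CXCL9 thus had most of its reads in the groups in which CXCL10 and CXCL11 were high with mtDNA, and few in Sen (IR), where CXCL10 was highest.

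CCL8, a CC chemokine near CCL2 and CCL7 on chromosome 17, was read in Sen (IR) alone. It had 6, 5 and 11 reads there and 0 reads in the other 15 libraries, including those with mtDNA. That makes it at least 6.84-fold higher in Sen (IR) than in Prol and at least 6.49-fold lower with mtDNA than in Sen (IR). Though placed in the interferon-driven class, it thus did not go with CXCL10, CXCL11 and CCL5 in the groups with mtDNA. CCL7, a monocyte attractant, had 2, 2 and 6 reads in Sen (IR), 1 read in all of Prol, and 5, 1, 1 and 0 reads in the 4 groups with CCCP in turn. CX3CL1, a chemokine with a membrane-bound form that binds CX3CR1, had 14, 9 and 9 reads in Sen (IR) against 3, 1 and 1 in Prol, a ratio of 5.97 (exact 95% interval 2.31 to 19.6). After CCCP it had 2 reads in the group (16.9-fold lower, 4.30 to 145), and the 3 groups with an addition had 6, 3 and 4 reads. The intervals cover counting error only.

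**Figure D4:**
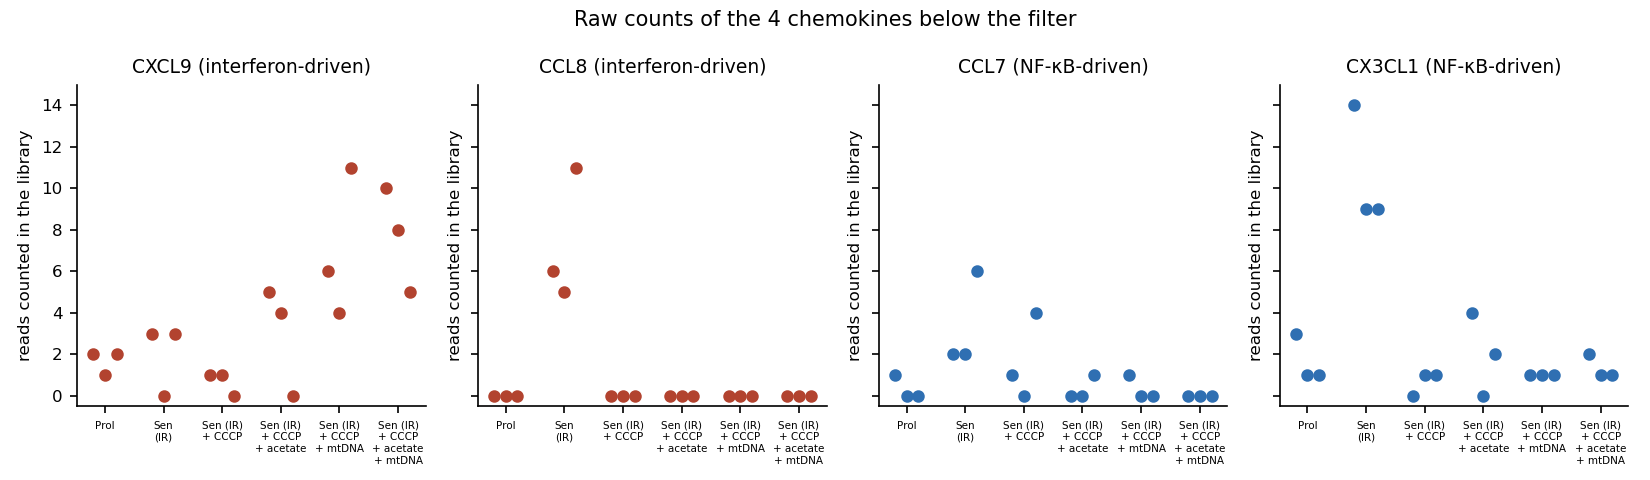
Reads counted in each library for the 4 chemokines below the filter on low counts, by group, with points for replicates 1 to 3 from left to right. CCL8 has 5 to 11 reads in Sen (IR) and 0 elsewhere, CX3CL1 has 9 to 14 reads in Sen (IR) and at most 4 elsewhere, and CXCL9 has most of its reads in the 2 groups with mtDNA.

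A pair of reference lists shows how the members compare with the rest of each pathway. Over all genes, 26.7% were called higher in Sen (IR) against Prol, 34.0% after CCCP, 28.8% with acetate, 10.7% with mtDNA and 30.3% with both. Called lower in the same order were 29.9%, 31.3%, 28.3%, 7.4% and 31.4%. Between both and mtDNA alone, 27.4% were called higher and 29.9% lower, and the interaction was called for 0.659%. Of 24 listed interferon response genes in the table, 21 were tested. In Sen (IR) against Prol 13 rose and 0 fell (median 0.88 on the log2 scale, against -0.01 for all genes), led by RSAD2, an antiviral enzyme (3.27 ± 0.65), OAS1, which makes 2-5A to activate RNase L (1.94 ± 0.54), and IFIT1, an RNA-binding inhibitor of translation (1.73 ± 0.32). After CCCP 20 fell and 0 rose (median -2.67, against 0.03 for all genes). With acetate 3 rose and 0 fell, namely IFIH1, XAF1 and IRF1, with a median of 0.07, against 0.01 for all genes. With mtDNA 20 rose (median 5.33, against 0.00 for all genes), led by OAS1 (11.29 ± 0.97), RSAD2 (10.62 ± 0.57) and the GTPase MX1 (9.01 ± 0.62). With both 20 rose (median 4.38), and against mtDNA alone 14 fell and 1, IRF1, rose (median -1.01, against -0.02 for all genes). Without replicate 2 of the combination, 20 rose with both against Sen (IR) + CCCP (median 3.58), and 19 fell and 1 rose against mtDNA alone (median -1.75). The interaction was called by edgeR for 0 of the 21 genes (7 at an unadjusted p under 0.05, all lower, with a median of -0.88 over the 21) and by DESeq2 for 2. Without that library edgeR called it for 14, all lower (median -1.75).

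IFNB1 had 0 reads in the 12 libraries that received no mtDNA, so it passed the filter on low counts through those that did. It had 25, 32 and 28 reads with mtDNA, and 4, 30 and 6 reads with both. CXCL10, CXCL11 and CCL5 were read at 0.157 CPM or higher in the Prol and Sen (IR) libraries, where IFNB1 was not detected.

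On the NF-κB list 22 of 23 genes were tested. In Sen (IR) against Prol 12 rose and 4 fell (REL, NFKBIE, TRAF1 and BCL3; median 0.33), led by the cytokines IL1B (2.93 ± 0.12), IL6 (2.44 ± 0.11) and CSF2 (2.11 ± 0.11). After CCCP 20 fell and 1, the NF-κB subunit RELA, rose (median -1.68), and among those that fell was the adhesion molecule ICAM1 (-5.74 ± 0.16). With acetate 21 rose and RELA fell (median 1.16), led by IL1A (5.95 ± 0.17), ICAM1 (4.37 ± 0.15) and CSF2 (3.59 ± 0.16). With mtDNA 16 rose and 0 fell (median 0.45), among them TNFAIP3, a feedback inhibitor (1.58 ± 0.13), and with both 21 rose and RELA fell (median 1.54). RELA and these 4 genes are named after their values were seen. CCL20 rose with acetate as did 21 of these 22 genes, whereas CCL2 fell. CXCL10 rose 8.14-fold with acetate, while 3 of 21 interferon genes were called higher there, beside 28.8% of all genes.

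**Figure D5:**
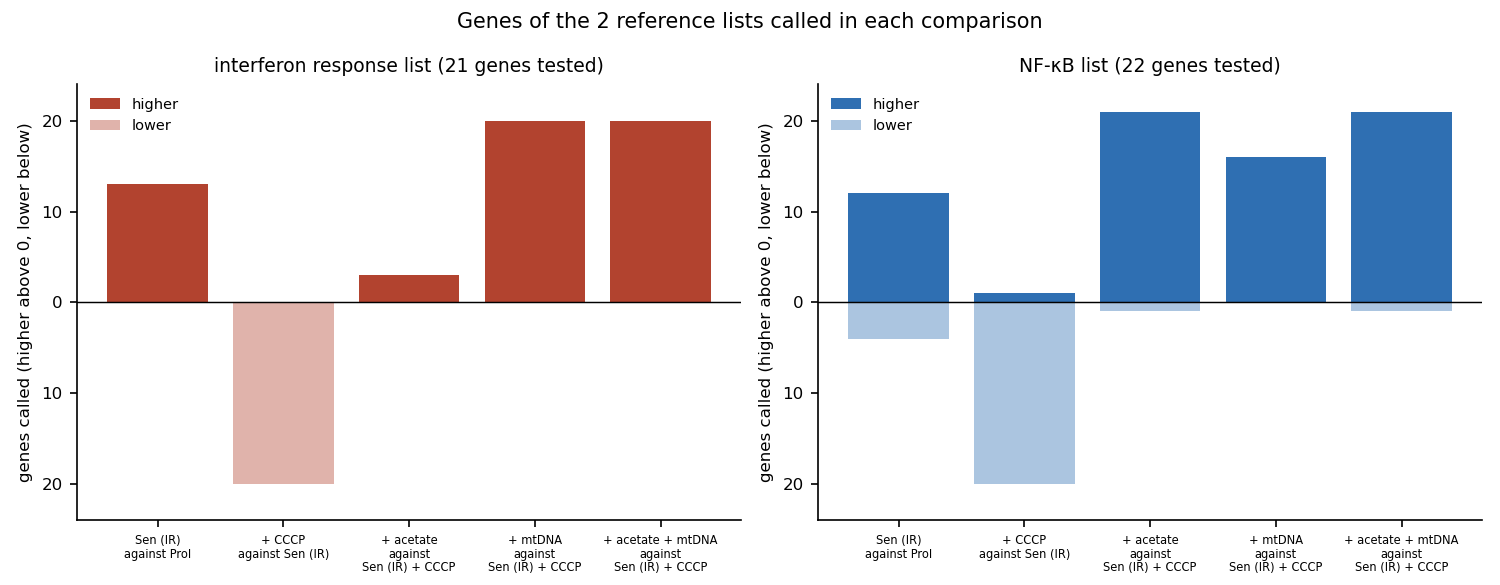
Number of genes called higher (above 0) or lower (below 0) on the interferon response list (21 tested) and the NF-κB list (22 tested) in 5 comparisons. The interferon list has 3 calls with acetate and 20 with mtDNA. The NF-κB list has 21 genes higher with acetate and 16 with mtDNA. Over all genes, 28.8% were called higher with acetate and 10.7% with mtDNA.

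Most receptors of these chemokines had few or no reads in the fibroblasts. CXCR3 had 1 read in the 18 libraries together. CCR2, CCR3, CCR6 and CX3CR1 had between 0 and 8 reads in a group, and CCR1 had up to 42 reads in Sen (IR). The 2 CXCL12 receptors were read. ACKR3, an atypical receptor that takes up CXCL12 and CXCL11, had 18.8 ± 0.264 CPM (mean and SD) in Prol. Its means lay between 7.22 and 14.4 CPM in the irradiated groups. CXCR4 had 2.5 ± 0.517 CPM (mean and SD) in Sen (IR) + CCCP and 0.173 ± 0.151 CPM (mean and SD) with acetate. It fell by 4.04 on the log2 scale (SE 0.36, adjusted p = 3.06e-09). Ligand and receptor were both lower with acetate (log2 -1.96 and -4.04), and both were also lower with acetate and mtDNA than with mtDNA alone (-2.14 and -3.88).

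Of 16 receptor and handling genes, 7 were tested. In the 5 main comparisons in turn 3, 1, 3, 1 and 3 rose, where 26.7%, 34.0%, 28.8%, 10.7% and 30.3% of all genes did. In the same order 3, 5, 1, 0 and 2 fell, where 29.9%, 31.3%, 28.3%, 7.4% and 31.4% of all genes did. ACKR4, a scavenger receptor for CCL19, CCL21 and CCL25, rose by 2.20 ± 0.26 in Sen (IR) and fell by 4.12 with CCCP (SE 0.32). DPP4, the peptidase that clips CXCL10, CXCL11 and CXCL12 at their amino end, rose by 2.42 ± 0.07 in Sen (IR), from 76.8 to 412 CPM (means), fell by 2.06 with CCCP (SE 0.07) and rose by 0.41 ± 0.07 with acetate. ADAM17, a sheddase that releases CX3CL1 from the membrane, rose by 0.30 ± 0.06 with acetate and by 0.24 ± 0.06 with mtDNA. Of 19 other chemokine genes 4 were tested, and all 4 rose in Sen (IR), where 26.7% of all genes did. They included CCL3 (0 reads in Prol and 62 in Sen (IR)), CXCL16 (1.87 ± 0.42) and CCL26 (1.52 ± 0.52). CCL3 passed the filter on low counts through the groups in which it was high. Its rise here and its fall to 0 below are therefore partly set by that filter. With acetate 3 of the 4 fell, where 28.3% of all genes did. CCL3 went from 16 reads in the group to 0 (adjusted p = 0.00167). CXCL16 fell by 1.39 (SE 0.39, adjusted p = 0.00399) and CCL28 fell by 0.73 (SE 0.29, adjusted p = 0.0348).

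The genes whose profile over the 18 libraries lay nearest to that of CXCL10 were IFI6, AL445490.1, IFI44, GBP1P1 and IFI27. The measure was the root mean square difference of log2 CPM after centring each gene on its own mean, and it was 0.861 for IFI6 and between 1.30 and 1.37 for the other 4. Among the members, CXCL11 lay at 1.16 and CCL5 at 1.23 from CXCL10, while CCL2 and CCL20 lay at 2.48 each and CXCL12 at 2.97. Nearest to CCL2 were CTSS (0.828), ADAMTS8 (0.833), ACKR4 (0.931), CFTR (0.948) and COL14A1 (0.953), and the nearest member was CXCL12 at 1.96. CCL20, placed in the same class as CCL2, was the member farthest from it, at 3.33. IFI6, an interferon-induced mitochondrial protein, had 257, 258 and 184 CPM in Sen (IR). As mean and SD, it had 3.00 ± 0.473 CPM after CCCP, 10.4 ± 0.951 CPM with acetate and 225 ± 33.4 CPM with mtDNA. These likenesses are descriptions over libraries that share groups.

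Position on the chromosome went only part of the way with these patterns. In GRCh38 (GENCODE release 44), CXCL9 (chr4:76001275-76007509), CXCL10 (chr4:76021118-76023497) and CXCL11 (chr4:76033682-76041415) lie side by side on the minus strand, and all 3 had more reads with mtDNA than after CCCP alone. CCL2 (chr17:34255274-34257208), CCL7 (chr17:34270221-34272242) and CCL8 (chr17:34319435-34321402) lie in this order on the plus strand. In these 3 the highest group was Sen (IR), and with mtDNA they kept 3.05%, 10.9% and 0% of its mean CPM, the latter 2 on 1 and 0 reads. CCL5 lies on the minus strand of the same chromosome (chr17:35871491-35880793). It went with CXCL10 and CXCL11 rather than with CCL2 in its response to mtDNA. CXCL10 and CXCL11 lie within the span of ART3 on the opposite strand, with 0 shared exonic bases, and whether counting used the strand is not given in the sources used here.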

How the data were processed

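Each library was made from poly(A) RNA and sequenced in paired reads. According to the submitters' processing notes, reads were trimmed with Trimmomatic 0.36, aligned to GRCh38 with STAR 2.5.2b and counted with featureCounts of Subread 1.5.2, and the authors deposited raw read counts per gene. The authors also deposited TPM values, transcript levels scaled to gene length and library size, which were used here only for levels between genes. Whether counting used the strand is not given in the sources used here.

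From the counts, 16994 of 57500 genes passed the expression filter of edgeR 4.0.16 (R 4.3.3, limma 3.58.1). One quasi-likelihood fit of 18 libraries in 6 groups, with TMM normalization and no block, gave log2 changes and Benjamini-Hochberg adjusted p-values, called under 0.05. Standard errors (SE) were derived from its test, as the absolute log2 change over the square root of the F statistic. The 95% intervals of log2 changes follow from these SE, so neither adds evidence beyond the p-value. CPM are TMM-adjusted. Where a group had few reads, summed counts gave an exact 95% interval, or a lower bound from 3 counts, for counting error only. The test was run on simulated data first. The members and the gene lists were chosen with earlier results of these data known. Named genes are the members, up to 3 genes per list and main comparison with the largest called change, all receptors, and the 5 profiles nearest CXCL10 and CCL2. Some of these genes are not reported here. Tried alternatives were DESeq2 1.42.0 and its size factors, other filters, only the groups compared, mtDNA genes left out, a replicate block, the study's call rule and each library left out. Leaving out both libraries that stand apart was chosen after seeing the data. Replicate numbers were not taken to pair the samples, and the labels do not say whether they do.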

Additional observations from a re-analysis of the deposited data

Results flagged for a closer look

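The effects of acetate on CXCL10 without mtDNA and with it differed by a test of the difference itself. The interaction on the log2 scale was -3.33 ± 0.76 (SE, 3 libraries in each of 4 groups, edgeR adjusted p = 0.0424): acetate changed CXCL10 by 3.03 in cells without mtDNA, where the libraries did not overlap, and by -0.31 in cells with mtDNA, where they did. The estimate stayed negative in every alternative run, and it lost its call in most of those that left out 1 library.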

How the results depend on the processing

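Of 78 member values, 60 kept their direction and their side of the threshold under all alternatives run, and 18 did not. The cause was not tested, except where fewer genes or samples are part of the alternative. With at least 10 counts in every library, few members were tested, and the members called fell to 2 higher in Sen (IR) against Prol, 2 lower in CCCP against Sen (IR), 3 lower in CCCP against Prol, 1 higher with acetate, 2 higher with mtDNA and 1 higher with both against CCCP. Between both and acetate it was 1 higher, between both and mtDNA 0 higher and 2 lower, and between mtDNA and acetate 3 higher and 0 lower. Against Sen (IR) it was 3 lower with acetate, 0 higher with mtDNA and 0 higher with both, and the interaction was called for 0. With no filter, 2 members were lower with both against CCCP, 5 were higher with both against acetate, 5 were lower with mtDNA and 3 higher and 7 lower with both against Sen (IR), and 2 had an interaction. The study's call rule gave 5 higher with both against acetate and 3 interactions.

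In CCCP against Prol, 1 member (CCL20) was higher, in place of 0, under DESeq2, no filter, the replicate block and the study's rule. Without both libraries that stand apart, 2 members were lower with both against CCCP and 3 had an interaction, CXCL11 with both against Sen (IR) was -0.18, and CXCL10 with both against mtDNA was -1.37. The interaction was called for 2 members under DESeq2, and for 0 with DESeq2's size factors or only the groups compared.

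With each library left out in turn, members higher in CCCP against Prol ranged from 0 to 1, lower with both against CCCP from 1 to 2, higher with both against Sen (IR) from 0 to 2, and with an interaction from 0 to 2. CXCL10 with both against mtDNA ranged from -1.36 to 0.059 (0.042 without replicate 3 of the combination), CXCL12 with mtDNA against Sen (IR) from -0.16 to 0.10, CXCL11 with both against Sen (IR) from -0.31 to 1.01, the CCL2 interaction from -0.52 to 0.20 and the CXCL12 interaction from -0.45 to 0.082.

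The deviations of same-numbered libraries from their group means had correlations from -0.29 to 0.27. Differently numbered libraries were not compared, so this does not settle whether the numbers pair the samples. With replicate number as a block, CCL20 was called higher in CCCP against Prol (2.37, edgeR adjusted p = 0.0443) and with mtDNA (1.55, adjusted p = 0.0497), and CXCL11 with acetate was not called (3.68, adjusted p = 0.0506). Over all genes, the study's rule called 5221 against 9628 in Sen (IR) against Prol, 7015 against 11088 in CCCP against Sen (IR), 5287 against 9709 with acetate, 1622 against 3071 with mtDNA and 6138 against 10487 with both. It called 1221 against 2136 for both against acetate, 5478 against 9748 for both against mtDNA, 5930 against 10420 for mtDNA against acetate, and 7166, 7572 and 7550 against 11198, 11466 and 11363 for acetate, mtDNA and both against Sen (IR). The interaction was called for 112 genes, for 272 under DESeq2, 413 with no filter, 553 under the study's rule, 820 without both libraries that stand apart and 55 to 403 with 1 library left out, and both against acetate for 1241 and 1296 without acetate replicate 2 and 3. Depth limits CXCL9, CCL7, CCL8 and CX3CL1.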
